A study of Mus musculus with 12 samples.

Results

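The 10 genes described here carry signals of the interleukin-6 (IL-6) family into the liver, together with the IL-1 receptor and its antagonist: *Il6ra*, *Il6st*, *Osmr*, *Lifr*, *Jak1*, *Stat3*, *Socs3*, *Cebpd*, *Il1r1* and *Il1rn*. They were chosen by name from the 45777 genes of the deposited table, and all 10 were found there. All 10 were tested in each comparison by the main test, that of edgeR. Liver RNA was sequenced from 12 male C57BL/6 mice of 2 genotype labels, WT and *Gna12* KO, each given vehicle or APAP, with 3 mice for every combination. APAP (acetaminophen), a painkiller that injures the liver at overdose, was given once by intraperitoneal injection at 300 mg/kg after an overnight fast, and livers were taken 6 h later. The mice were 10 to 12 weeks old by their labels, the WT mice were age-matched littermates of the KO mice by the study's methods, and the KO mice are labelled as lacking Gα12, a G protein subunit, with no promoter or Cre named. *Gna12* reads, scaled to the library total as CPM, ranged from 43.5 to 67.2 in the livers labelled KO and from 23.7 to 66.7 in the WT livers, and so did not separate the genotypes. The study's own checks of WT and KO mice were PCR of tail DNA, *Gna12* qRT-PCR of liver and liver immunoblots for Gα12. They are not stated to be from the sequenced livers. The sources used here do not state which part of the gene is missing, and the groups are therefore called by their labels.

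IL-6 binds its own receptor, encoded by *Il6ra*, and the complex then joins gp130, the shared signalling chain encoded by *Il6st*. Oncostatin M and leukaemia inhibitory factor (LIF) reach gp130 through the partner chains encoded by *Osmr* and *Lifr*. Janus kinases such as JAK1 phosphorylate the receptor tails and the transcription factor STAT3, which enters the nucleus, and in hepatocytes it turns on *Socs3*, a feedback inhibitor of the same receptors, *Cebpd*, a C/EBP transcription factor, and the genes of the acute phase plasma proteins. IL-1 signals through the separate receptor encoded by *Il1r1*, acts with IL-6 on many acute phase genes, and is blocked by the antagonist encoded by *Il1rn*.

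The promoter of *Socs3* was read first, because *Socs3* is the textbook direct target of STAT3 in this pathway and was the member with the largest fold change after APAP over all livers and in mice labelled KO, though not in WT mice. RefSeq promoter windows on GRCm38.p6, the same build as the mm10 of the files, were available for 9 of the 10 genes as 13 windows, each from 250 bases before to 50 bases after a transcript start, and none was listed for *Cebpd*. The letters TTCNNNGAA, the core bound by STAT factors, which reads the same on both strands, were found in 1 of the 13 windows, that of *Socs3*, beginning 154 bases before the start. In the stretch below, of 29 bases at chr11:117969502-117969530 on the minus strand, the capitals mark the match.
Socs3: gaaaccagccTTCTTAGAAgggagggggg
These letters stood in 8.3% of 32851 promoter windows of the same length, so a match in 1 of 13 windows is close to that share. The C/EBP letters TTGCGCAA, also the same on both strands and without overlap with the first, were in none of the 13 windows and in 0.183% of all windows. A match is a description of letters and says nothing of binding in these livers.

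Unless another unit is named, values between livers below are CPM scaled by the TMM method, which corrects for library size and composition. Fold changes are log2 values from edgeR's quasi-likelihood test, with its standard error (SE) and a Benjamini-Hochberg adjustment over all genes tested. A gene is called where the adjusted p-value is under 0.05. The libraries held 49737950 to 69566079 counts (median 53353959). These are whole livers, in which a change in the share of a cell type and a change in RNA per cell cannot be told apart. All 7 hepatocyte markers were abundant in each group, with summed levels of 61538 to 94059 TPM, a unit scaled by transcript length. Over all livers 1 of these 7 was called lower after APAP, beside 11.4% of all genes, and none higher. Of the marker lists of other cells, over all livers 1 of 6 tested neutrophil markers, 2 of 6 sinusoidal endothelial markers, 2 of 5 cholangiocyte markers and 2 of 3 platelet genes were called higher after APAP, beside 14% of all genes, and 1 of 7 stellate cell markers lower, beside 11.4%, while none was called among 7 Kupffer cell, 5 monocyte, 8 lymphocyte and 6 erythroid genes.

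Among the libraries, 2 stood apart from their groups and touch the results below. WT vehicle replicate 2 held the highest level of 3 of the 10 genes among the 12 livers, *Stat3*, *Socs3* and *Il1r1*, whereas it held the highest level of 8.26% of all genes. The 7 neutrophil markers (among them *S100a8* and *S100a9*) summed to 40.6 TPM in that liver and to between 0.853 and 3.39 TPM in the 5 other vehicle livers, and their part in the result was not tested. WT APAP replicate 1 held 2.87% of its TPM in haemoglobin genes, against at most 0.151% in the 11 other livers, and its 10 genes had a median of 4.61 CPM for each TPM, against 2.36 to 3.58 elsewhere. TPM levels in that liver are therefore lower for the same CPM. Results on the 3 genes that peaked in WT vehicle replicate 2, and on *Osmr*, are given with and without it. That library was singled out after these values were seen. Leaving out the highest vehicle value of a gene that rises widens its difference. The p-values without that library are therefore descriptions and no independent test.

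**Figure D1:**
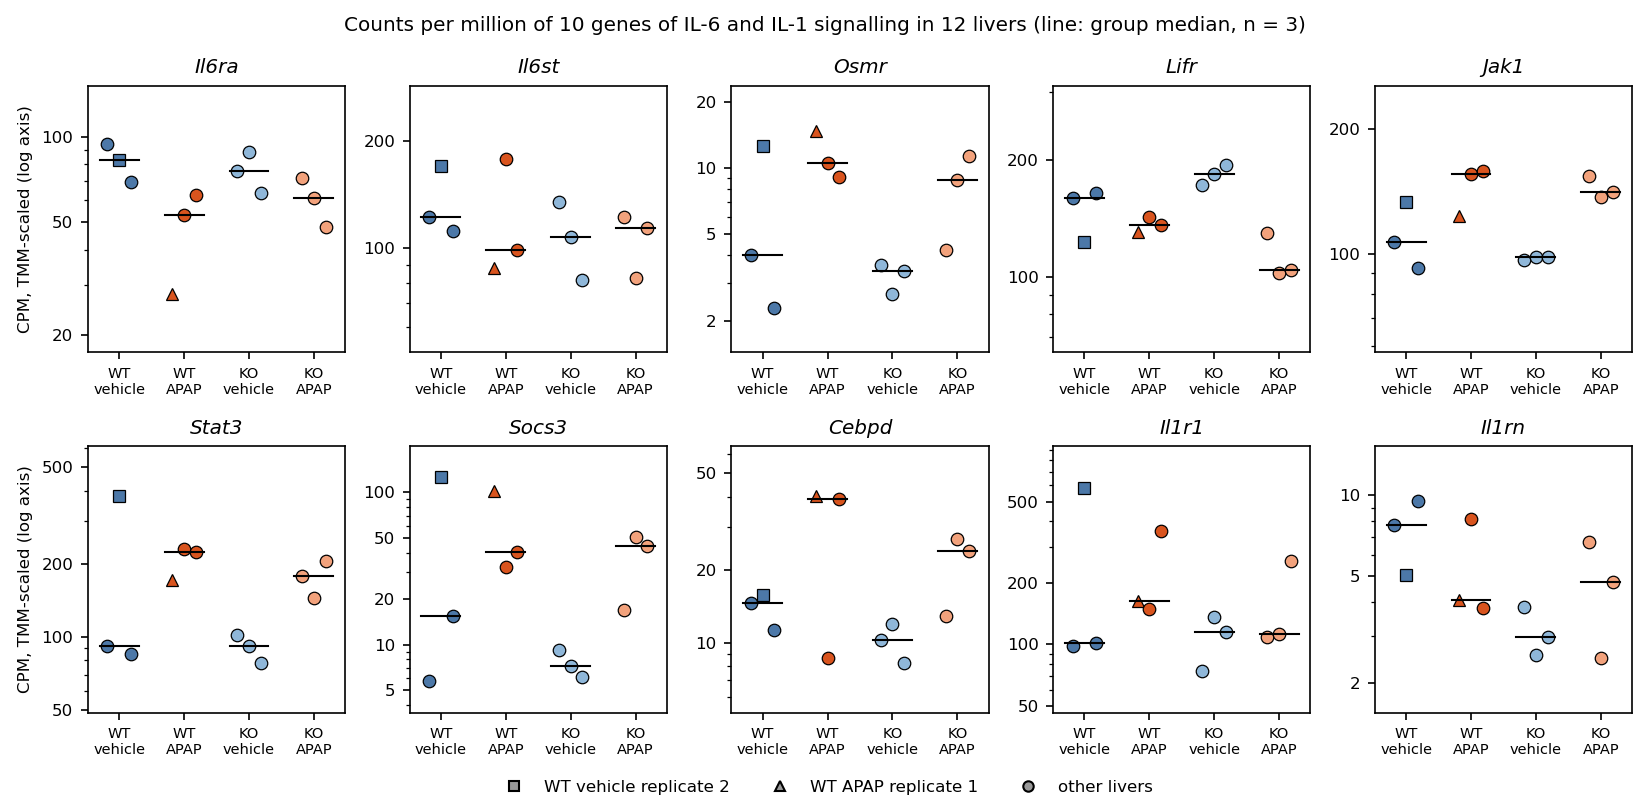
Each panel shows 1 gene, with the 4 groups of 3 livers on the horizontal axis and CPM on a log vertical axis; lines are group medians. The square, WT vehicle replicate 2, is the top point of *Stat3* (380.5 CPM), *Socs3* (124.7 CPM) and *Il1r1* (583.2 CPM), and in the livers labelled KO the APAP points of *Stat3*, *Socs3*, *Osmr*, *Jak1* and *Cebpd* all lie above the vehicle points and those of *Lifr* below.

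Taking genotype into account, 6 APAP livers were compared with 6 vehicle livers. Of the 10 genes, *Jak1*, *Cebpd* and *Osmr* rose and *Lifr* and *Il6ra* fell, which is 3 of 10 higher beside 14% of all 16509 genes tested and 2 of 10 lower beside 11.4%. None of the 10 separated the 6 APAP livers from the 6 vehicle livers without overlap, as 12.5% of all genes did. The median log2 fold change of the 10 genes was 0.32, and that of all genes was 0.01. Without WT vehicle replicate 2, 5 genes rose (*Socs3*, *Osmr*, *Cebpd*, *Stat3* and *Jak1*) beside 15.2% of all genes, and *Lifr* fell beside 12.3%. The same 6 genes were called, in the same directions, when WT APAP replicate 1 was left out as well, with 18.4% and 14.9% of all genes called higher and lower.

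Within the mice labelled KO, 5 of the 10 genes rose, beside 13% of the 15665 genes tested, and 1 fell, beside 9.6%. These 6 genes were *Socs3*, *Osmr*, *Cebpd*, *Stat3* and *Jak1*, higher, and *Lifr*, lower, and they are also the 6 whose groups did not overlap (21.8% of all genes did not overlap in the higher direction and 21.1% in the lower). With all 12 livers in one fit, which shares 1 estimate of the spread, 2 of these calls remained, *Jak1* and *Lifr*. Within the WT mice none of the 10 was called by edgeR, DESeq2 or limma, beside 1.62% of 15693 genes called higher and 0.427% lower by edgeR. The smallest adjusted p-value of edgeR there was 0.224, for *Il6ra*, the one gene of the 10 with an unadjusted p-value under 0.05, as 18% of all genes had. Without WT vehicle replicate 2 none was called either, beside 1.1% of all genes called higher and 0.33% lower. The median log2 fold change of the 10 genes was 0.58 in mice labelled KO and 0.03 in WT mice. Without WT vehicle replicate 2 the WT median was 0.86. The comparison over all livers reuses the livers of both genotype labels, so it is no independent repeat of either.

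**Figure D2:**
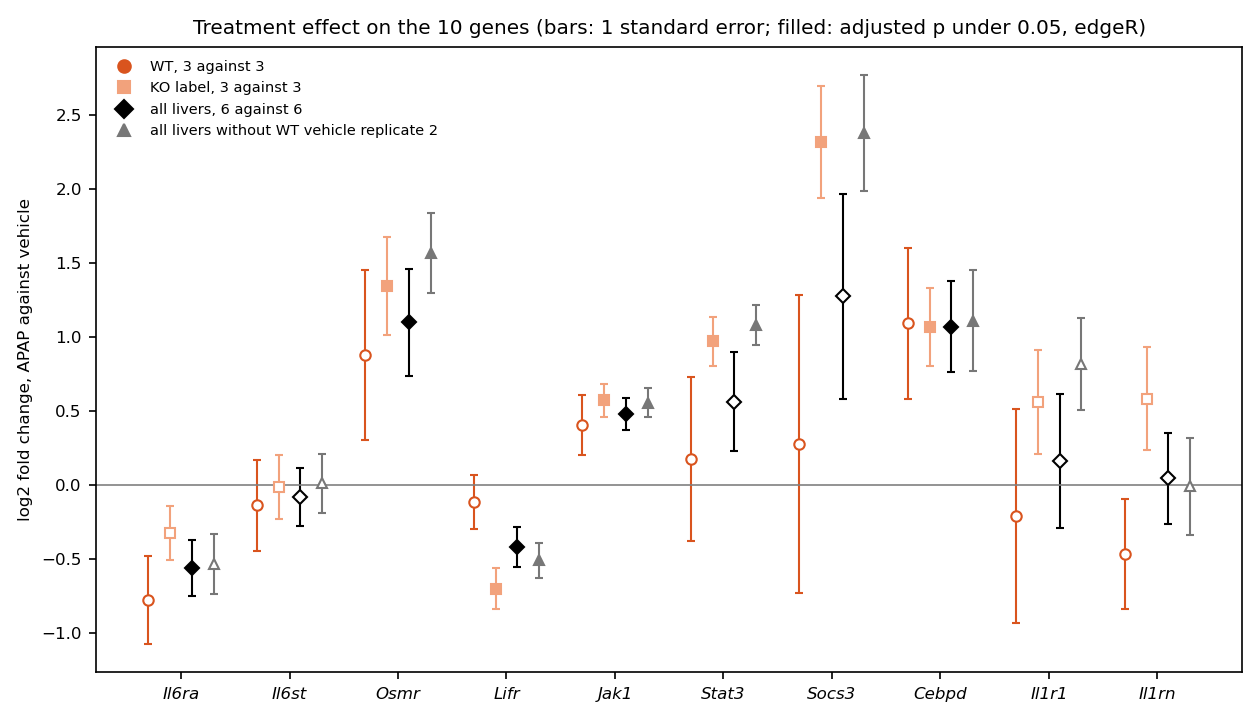
Log2 fold change of APAP against vehicle for each gene, in WT mice, in mice labelled KO, over all livers and over all livers without WT vehicle replicate 2; bars are 1 SE and filled symbols have an adjusted p-value of edgeR under 0.05. *Socs3* has the largest value in mice labelled KO (2.32), and its WT value (0.28) has the longest bar of the WT values (SE 1.00).

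*Socs3*, the feedback inhibitor, varied most. Replicates 1 to 3, an order kept below, had 5.73, 124.7 and 15.5 CPM in WT mice given vehicle and 102.3, 32.3 and 40.5 CPM in WT mice after APAP. In the livers labelled KO it was at 9.20, 7.20 and 6.14 CPM with vehicle and at 16.9, 50.5 and 44.4 CPM after APAP. Every APAP liver was above every vehicle liver other than WT vehicle replicate 2, which was above them all, at 17.3 times the median of the 5 other vehicle livers. In mice labelled KO *Socs3* rose by 2.32 on the log2 scale (SE 0.38, edgeR's adjusted p = 0.0050), a 4.98-fold difference. In WT mice the log2 fold change was 0.28 (SE 1.00, edgeR's adjusted p = 0.914), and 2.46 (SE 0.66, adjusted p = 0.115) without WT vehicle replicate 2. Over all livers it was 1.27 (SE 0.69, edgeR's adjusted p = 0.203) with that library and 2.37 (SE 0.39, adjusted p = 0.00106) without it. Among the 12 fits that left out 1 liver, only the fit without WT vehicle replicate 2 called *Socs3*. The adjusted p-value of edgeR reached 0.356 in the others.

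*Stat3*, the transcription factor itself, is also one of its own targets. Its WT levels were 92.0, 380.5 and 85.1 CPM with vehicle and 172.1, 229.1 and 223.8 CPM after APAP. Under the KO label the vehicle livers had 101.8, 91.4 and 78.1 CPM and the APAP livers 177.3, 144.8 and 205.6 CPM. The 6 APAP livers thus lay above 5 of the 6 vehicle livers, and WT vehicle replicate 2, at 4.16 times the median of those 5, lay above the APAP livers. *Stat3* rose by 0.97 on the log2 scale in mice labelled KO (SE 0.17, edgeR's adjusted p = 0.0060). In WT mice its log2 fold change was 0.18 (SE 0.56, edgeR's adjusted p = 0.900), and 1.24 (SE 0.22, adjusted p = 0.0564) without WT vehicle replicate 2. Over all livers the value was 0.56 (SE 0.33, edgeR's adjusted p = 0.245) with that library and 1.08 (SE 0.14, adjusted p = 0.000181) without it. *Stat3* too was called in 1 of the 12 fits that left out 1 liver, the fit without WT vehicle replicate 2. The adjusted p-value of edgeR reached 0.390 in the others.

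*Jak1*, the kinase that acts on gp130 receptors, kept its call in more fits than the other genes that rose over all livers. It was at 106.7, 133.6 and 92.6 CPM in WT mice with vehicle and 123.3, 156.0 and 158.7 CPM after APAP. With the KO label the levels were 96.6, 98.1 and 98.0 CPM with vehicle and 154.0, 136.8 and 141.1 CPM after APAP. The groups labelled KO did not overlap, and in the WT groups only WT vehicle replicate 2 exceeded an APAP liver. *Jak1* rose over all livers by 0.48 on the log2 scale (SE 0.11, edgeR's adjusted p = 0.0070), a 1.39-fold difference, and kept its call in all 12 fits that left out 1 liver, with adjusted p-values of 0.00166 to 0.0204. Its log2 fold change was 0.57 (SE 0.11, edgeR's adjusted p = 0.0099) in mice labelled KO and 0.40 (SE 0.20, adjusted p = 0.351) in WT mice.

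*Cebpd*, a C/EBP factor that takes part in acute phase transcription, was at 14.6, 15.7 and 11.3 CPM in WT vehicle livers and at 40.3, 8.67 and 39.0 CPM in WT APAP livers. The livers labelled KO had 10.3, 11.9 and 8.24 CPM with vehicle and 12.9, 26.7 and 23.8 CPM after APAP. WT APAP replicate 2 lay below 5 of the 6 vehicle livers, and the other WT APAP livers lay highest of all. Over all livers *Cebpd* rose by 1.07 on the log2 scale (SE 0.31, edgeR's adjusted p = 0.0227). The adjusted p-value of edgeR reached 0.0584 at most with 1 liver left out, and the call ended without WT vehicle replicate 3, WT APAP replicate 3, KO vehicle replicate 3 or KO APAP replicate 2. The log2 fold change was 1.07 (SE 0.26, edgeR's adjusted p = 0.0231) in mice labelled KO, where the call held without KO APAP replicate 1 and was lost without any 1 of the 5 other livers (adjusted p up to 0.0861). In WT mice it was 1.09 (SE 0.51, edgeR's adjusted p = 0.316), and 1.51 (adjusted p = 0.0216) without WT APAP replicate 2.

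The receptor chains moved in different directions. *Osmr*, the oncostatin M chain, was at 4.00, 12.6 and 2.32 CPM in WT vehicle livers and at 14.8, 10.6 and 9.08 CPM in WT APAP livers. Its levels under the KO label were 3.63, 2.67 and 3.38 CPM with vehicle and 4.25, 8.84 and 11.3 CPM after APAP. As for *Stat3* and *Socs3*, each APAP liver was above the 5 vehicle livers other than WT vehicle replicate 2, but here that library ranked second of 12. *Osmr* rose over all livers by 1.10 on the log2 scale (SE 0.36, edgeR's adjusted p = 0.0420), and by 1.57 (SE 0.27, adjusted p = 0.00133) without WT vehicle replicate 2. The call held in 4 of the 12 fits that left out 1 liver (WT vehicle replicate 2, WT APAP replicates 2 and 3, and KO APAP replicate 1), and the adjusted p-value of edgeR reached 0.1001 in the others. It rose by 1.34 (SE 0.33, edgeR's adjusted p = 0.0234) in mice labelled KO, and the call was kept without KO vehicle replicate 1 or KO APAP replicate 1 but lost without any 1 of the 4 other livers (adjusted p up to 0.0884). In WT mice the log2 fold change was 0.88 (SE 0.57, edgeR's adjusted p = 0.461), and 1.86 (SE 0.36, adjusted p = 0.0622) without WT vehicle replicate 2.

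*Lifr*, the LIF chain, was at 159.6, 123.3 and 165.0 CPM in WT vehicle livers and 131.0, 143.2 and 136.4 CPM after APAP. Under the KO label it was at 172.4, 184.3 and 194.4 CPM with vehicle and 130.1, 102.2 and 104.2 CPM after APAP. The vehicle livers labelled KO were the 3 highest of the 12 and 2 of the APAP livers labelled KO the 2 lowest. *Lifr* fell by 0.70 on the log2 scale in mice labelled KO (SE 0.14, edgeR's adjusted p = 0.0100), called with each of the 6 livers left out (adjusted p from 0.0131 to 0.0411). In WT mice the log2 fold change was -0.12 (SE 0.18, edgeR's adjusted p = 0.771), and over all livers it was -0.42 (SE 0.13, adjusted p = 0.0352), a call kept without WT vehicle replicate 2 or any 1 of the WT APAP livers and lost without any 1 of the 8 others (adjusted p up to 0.104).

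*Il6ra*, the chain that gives a cell its response to IL-6, was at 94.4, 82.7 and 69.5 CPM in WT vehicle livers and at 27.9, 52.9 and 62.2 CPM in WT APAP livers. With the KO label there were 76.1, 88.3 and 63.4 CPM with vehicle and 71.5, 60.9 and 48.2 CPM after APAP. The WT groups did not overlap, with WT APAP replicate 1 lowest of all, and 11.9% of all genes were likewise lower without overlap there. The log2 fold change was -0.78 (SE 0.30, edgeR's adjusted p = 0.224) in WT mice and -0.33 (SE 0.18, adjusted p = 0.228) in mice labelled KO. Over all livers *Il6ra* fell by 0.56 (SE 0.19, edgeR's adjusted p = 0.0473), close to the threshold, and the call was kept without WT APAP replicate 1 or 3, KO vehicle replicate 3 or KO APAP replicate 1 and lost without any 1 of the 8 others (adjusted p up to 0.104, and 0.0705 without WT vehicle replicate 2).

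*Il6st*, the gp130 chain that all of these receptors share, did not pass the test in any comparison. It was at 122.6, 169.9 and 111.9 CPM in WT vehicle livers, 88.2, 178.8 and 98.7 CPM in WT livers after APAP, 134.7, 107.5 and 81.5 CPM in vehicle livers labelled KO and 122.2, 82.5 and 113.7 CPM in APAP livers labelled KO. The groups overlapped throughout. Over all livers its log2 fold change was -0.08, with an interval of 2 SE from -0.48 to 0.31 (edgeR's adjusted p = 0.791).

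The IL-1 genes did not pass the test either. *Il1r1*, the signalling receptor, was at 98.3, 583.2 and 101.8 CPM in WT vehicle livers and at 162.8, 149.4 and 359.9 CPM in WT APAP livers. In the livers labelled KO it was at 74.3, 136.0 and 115.4 CPM with vehicle and 109.0, 112.6 and 255.1 CPM after APAP. WT vehicle replicate 2 stood at 5.73 times the median of the 5 other vehicle livers, and replicate 3 was the highest of each APAP group. Over all livers its log2 fold change was 0.16 (SE 0.45, edgeR's adjusted p = 0.824), and 0.82 (SE 0.31, adjusted p = 0.0688) without WT vehicle replicate 2. *Il1rn*, the antagonist, ranged from 2.53 to 9.52 CPM with vehicle and from 2.48 to 8.18 CPM after APAP, with a log2 fold change of 0.04 (SE 0.31, edgeR's adjusted p = 0.933).

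On the TPM scale, which allows levels of different genes to be set side by side, *Jak1*, *Stat3* and 4 of the receptor genes had higher vehicle medians than *Cebpd*, *Socs3*, *Il1rn* and the receptor gene *Osmr*. In the 6 vehicle livers the median was 52.0 TPM for *Lifr*, 39.7 for *Il6ra*, 35.9 for *Il6st*, 34.5 for *Stat3*, 34.3 for *Jak1* and 32.5 for *Il1r1*, and neighbours in this order overlapped between livers. The other 4 genes followed at medians of 8.86 TPM for *Cebpd*, 4.74 for *Socs3*, 3.04 for *Il1rn* and 1.15 for *Osmr*, again overlapping with their neighbours. Every vehicle liver had more *Il1r1* (at least 28.1 TPM) than any had *Cebpd* (at most 11.2 TPM), the one gap in the order. In 8 of the 12 livers each of the 6 upper genes exceeded each of the 4 lower ones. After APAP *Stat3* had the highest median, 79.4 TPM, and ranked first or second among the 10 genes in each APAP liver. *Osmr* stayed among the 2 lowest genes in every liver.

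**Figure D3:**
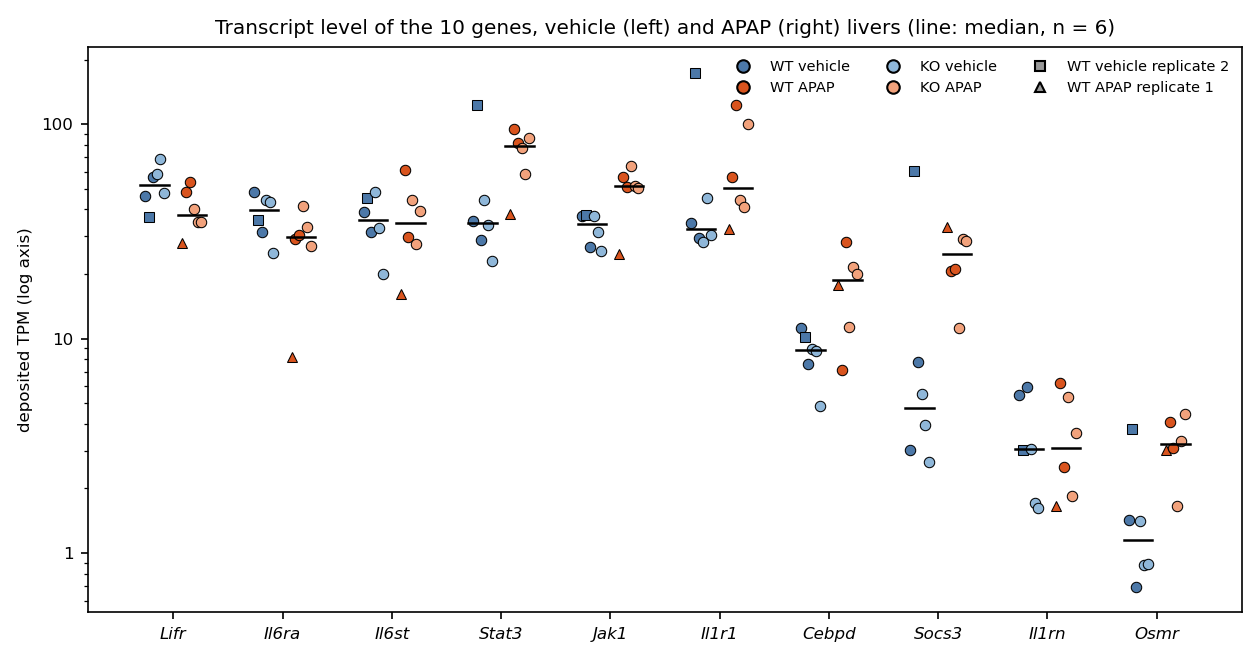
Deposited TPM of the 10 genes on a log axis, ordered by the vehicle median, with the 6 vehicle livers at the left and the 6 APAP livers at the right of each gene; lines are medians. *Lifr* to *Il1r1* lie above *Cebpd* to *Osmr* in most livers, and the *Stat3* median is 34.5 TPM with vehicle and 79.4 TPM after APAP.

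The genotype labels were compared after APAP and with vehicle, and their effect on the response to APAP was tested as an interaction. After APAP none of the 10 genes was called between WT mice and mice labelled KO by edgeR, DESeq2 or limma, none had an unadjusted p-value under 0.05 (3.31% of all genes did), and 0.0309% of the 16174 genes tested were called by edgeR. The log2 difference, WT over KO label, was 0.30 (interval of 2 SE from -0.04 to 0.64) for *Lifr*, whose groups did not overlap as for 3.86% of all genes in that direction, 0.51 (-0.20 to 1.23) for *Osmr* and 0.67 (-0.37 to 1.70) for *Socs3*. These intervals do not show that the genotypes were alike. The 7 neutrophil markers summed to 236.3, 26.6 and 53.0 TPM in the WT APAP livers and to 7.62, 1.27 and 19.0 TPM in the APAP livers labelled KO. The highest sum was that of WT APAP replicate 1, the liver rich in haemoglobin RNA. This summed level thus separated the groups, as 3.86% of single genes did in that direction by CPM. Of the 6 markers tested none was called between the groups. The part of the summed level in the differences above was not tested.

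With vehicle, edgeR and limma called none of the 10 genes between the labels and DESeq2 called 1, *Il1rn*, and edgeR called 0.0262% of 15262 genes tested. With an unadjusted p-value under 0.05 there were 3 of the 10 genes, all higher in WT mice, beside 7.56% of all genes. *Il1rn* was at 7.75, 5.05 and 9.52 CPM in the WT vehicle livers and at 3.83, 2.53 and 2.96 CPM in those labelled KO, without overlap (6.53% of all genes were higher in WT mice in this way). Its log2 difference was 1.26 (SE 0.28, edgeR's adjusted p = 0.419), and 1.47 (SE 0.22, adjusted p = 0.173) without WT vehicle replicate 2. The second was *Socs3* at 2.69 (SE 0.99, edgeR's adjusted p = 0.611), and 0.49 (SE 0.38, adjusted p = 0.824) without WT vehicle replicate 2. The third was *Cebpd* at 0.45 (SE 0.19, edgeR's adjusted p = 0.652). *Lifr* was lower in WT mice without overlap, as were 7.46% of all genes.

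For the interaction, edgeR and limma called 0% of the 16509 genes. DESeq2 called 9 genes, none of them a member, and gave a p-value for 9 of the 10 members. By edgeR, 5.14% of all genes had an unadjusted p-value under 0.05, and of the 10 genes 1 did, *Lifr*, with a log2 difference of 0.59 between its WT and KO label fold changes (SE 0.22, edgeR's adjusted p = 0.872). The interaction of *Socs3* was -2.05 with WT vehicle replicate 2 and 0.15 without it, that of *Stat3* -0.79 and 0.27, that of *Il1r1* -0.77 and 0.61, and that of *Osmr* -0.47 and 0.52. For each of these 4 genes the sign thus turned on that library, and the adjusted p-values of edgeR were at least 0.872 with it and at least 0.920 without it.

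The ligands of the family were scarce in the deposited counts. *Il6* had 23 counts in WT APAP replicate 1 and 7 in replicate 2 and none in the 10 other livers, so it was not tested. *Osm*, the oncostatin M gene, was counted 40 times in WT APAP replicate 1, 8 times in replicate 3 and at most 6 times elsewhere. *Lif* had 6, 56 and 20 counts in the WT APAP livers, 0, 4 and 21 in the APAP livers labelled KO, and 3 in WT vehicle replicate 2 alone among vehicle livers. *Il11* had 13, 63 and 21 counts in the WT APAP livers, 8, 18 and 28 in those labelled KO, and at most 6 in a vehicle liver. *Clcf1*, the cardiotrophin-like cytokine, was the ligand gene of the list with the smallest p-value: it had 93 to 260 counts in the APAP livers and 17 to 51 in the vehicle livers, a log2 fold change of 2.05 over all livers (SE 0.29, edgeR's adjusted p = 0.000393). Of the 12 ligand genes 6 could be tested over all livers, and 3 rose (*Clcf1*, *Lif*, *Il11*), beside 14% of all genes, and 1 fell, beside 11.4%. Among vehicle livers alone 4 passed the expression filter, *Clcf1* among them, and *Lif* and *Il11* did not. The entry of these last genes into the test rested on their counts after APAP, so their rises are descriptions.

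Other genes of the pathway were read from lists chosen by role, with earlier results of these data known. Their counts stand beside the same 14% and 11.4% of all genes, as a description. Of 7 receptors tested, the members *Osmr*, *Lifr* and *Il6ra* were the ones called, and *Il11ra1*, *Il27ra* and *Cntfr* had log2 fold changes of 0.08, 0.05 and 0.01. Of 11 JAK kinases and STAT factors 2 rose, *Jak1* and *Jak2*, the latter by 0.59 (SE 0.14, edgeR's adjusted p = 0.00714), while *Tyk2* (-0.35) and *Stat5b* (-0.20) did not pass. Of 16 inhibitors 3 rose and 1 fell. *Socs1*, a suppressor of JAK kinases, rose by 2.66 (SE 0.49, edgeR's adjusted p = 0.00174). Its levels were 0.039 to 0.50 CPM with vehicle and 0.70 to 1.73 CPM after APAP. Among vehicle livers alone 15 of the 16 passed the expression filter and *Socs1* did not, so its entry into the test rested on the APAP livers. *Socs5* rose by 0.85, and *Ptpn6*, a phosphatase of blood cells, fell by 0.37. Of 11 genes of receptor shedding and of the SHP2 and RAS arm 4 rose, among them *Gab2* (0.86) and *Rhbdf1* (1.27), and 1 fell, the adaptor gene *Gab1*, by 0.62. Of 7 C/EBP factors 3 rose: *Ddit3*, which encodes the stress factor CHOP, by 4.94 (SE 0.23, edgeR's adjusted p = 8.425e-08), *Cebpb* by 0.90 and *Cebpd*. *Cebpz* had a log2 fold change of 0.34 and did not pass. Over the 12 fits that left out 1 liver the receptors called numbered 0 to 3 and the inhibitors 2 to 7, the 7 without WT vehicle replicate 2.

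The list of 20 early STAT3 targets, which includes *Socs3* and *Cebpd*, held 13 genes that rose over all livers, beside 14% of all genes. None fell, beside 11.4%. This list too was chosen with earlier results of these data known, so its counts describe the list and do not test it. Among vehicle livers alone 19 of the 20 passed the expression filter and *Timp1* did not, so its entry rested on the APAP livers. The median log2 fold change of the list was 1.00 against 0.01 for all genes. It held 14 that rose in mice labelled KO, beside 13% of all genes, and 3 in WT mice, beside 1.62%. *Fos*, an AP-1 subunit, rose by 6.93 (SE 0.65, edgeR's adjusted p = 1.697e-05), from 0.47 to 3.31 CPM with vehicle to 22.3 to 267.9 CPM after APAP. *Myc*, a growth factor-induced transcription factor, rose by 3.53 (SE 0.39, edgeR's adjusted p = 6.637e-05) and *Nfkbiz*, a nuclear IκB protein, by 2.44 (SE 0.28, adjusted p = 7.609e-05). These 3 are targets of several other pathways too. Without WT vehicle replicate 2 the list held 15 genes that rose, beside 15.2% of all genes.

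The list of 24 acute phase genes holds mostly plasma proteins that hepatocytes secrete, together with *Il1rn* and *Steap4*, which encodes a membrane metalloreductase. Over all livers none of the 24 rose by edgeR, beside 14% of all genes. None rose by DESeq2 either, which gave a p-value for 18 of them. By limma 1 rose, and limma called 26.9% of all genes in either direction. At an unadjusted p-value of edgeR under 0.05, 1 was higher and 2 were lower. The 1 gene that fell was *Crp*, by 0.91 (SE 0.21, edgeR's adjusted p = 0.00739), beside 11.4% of all genes. *Hamp*, the hepcidin gene, had a log2 fold change of 1.14 (edgeR's adjusted p = 0.1302) and *Saa4* of -1.11 (adjusted p = 0.0737). In mice labelled KO 7 rose and 2 fell, beside 13% and 9.6% of all genes, and in WT mice none was called (1.62% of all genes rose and 0.427% fell), with 1 lower at an unadjusted p-value under 0.05. Without WT vehicle replicate 2, 10 of the 24 rose and 1 fell over all livers, beside 15.2% and 12.3% of all genes, and the median log2 fold change was 0.77 in place of -0.19. In WT mice 1 then rose, beside 1.1% of all genes.

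WT vehicle replicate 2 was the highest of the 12 livers for 22 of the 24 acute phase genes, the 2 others being *Cp* and *Il1rn*, and for 4 of the 20 early STAT3 targets, *Socs3*, *Bcl3*, *Icam1* and *Nnmt*. Chosen after their values were seen, *Saa1* had 4787 CPM in that liver and 6.80 to 86.5 CPM in the 5 other vehicle livers, and *Lcn2* had 955.7 CPM against 1.95 to 13.8 CPM. The fibrinogen gene *Fgb* had 12200 CPM there and 2176 to 2590 CPM in those 5. *Fos* was at 3.31 CPM there, 3.94 times the median of the 5 other vehicle livers, and at 22.3 CPM or more in each APAP liver. Over the 20 early STAT3 targets, the median difference of that liver from the median of those 5 was 0.78 on the log2 scale, beside -0.01 over all genes. The labels give this mouse vehicle, and nothing in them sets it apart.

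**Figure D4:**
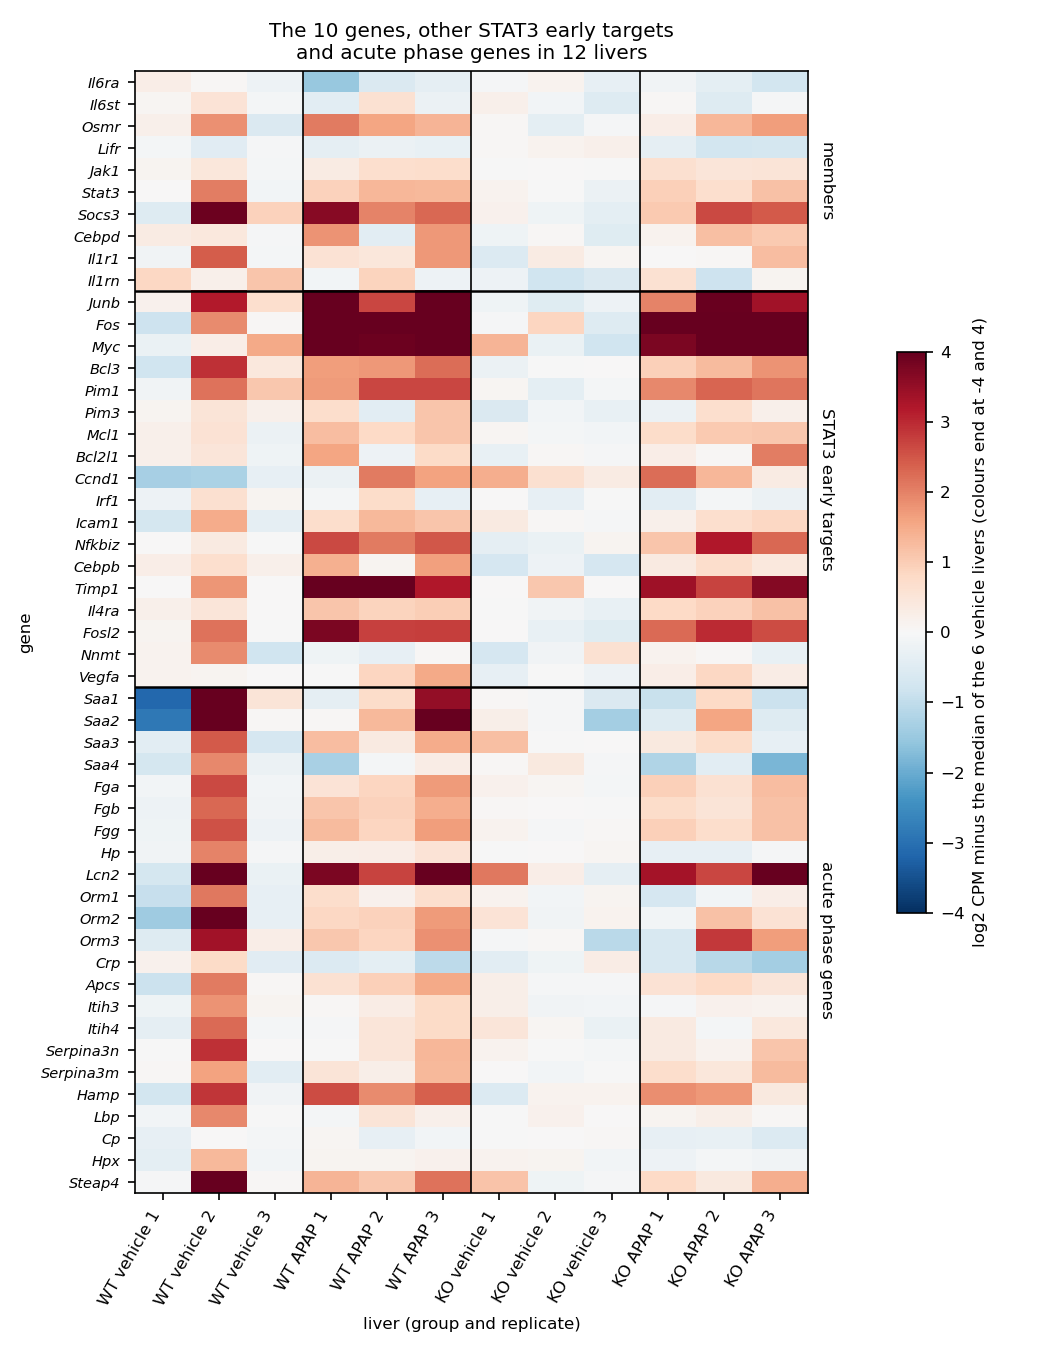
Log2 CPM minus the median of the 6 vehicle livers, for the 10 genes, the other early STAT3 targets and the other acute phase genes (rows) in the 12 livers (columns); colours end at -4 and 4. The column of WT vehicle replicate 2 is red through most of the acute phase block, where it is the highest liver for 22 of 24 genes counting *Il1rn*, while *Fos* and *Myc* are red in the 6 APAP columns.

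For the IL-1 list, 3 of 21 genes tested over all livers rose, beside 14% of all genes, and 1 fell, beside 11.4%. The rises were thus close to the share of all genes. Only 1 to 3 of the 21 were called in the 12 fits that left out 1 liver. *Il1r2*, the decoy receptor, rose by 3.63 (SE 1.04, edgeR's adjusted p = 0.0214), from at most 0.67 CPM with vehicle to between 0.13 and 7.96 CPM after APAP. *Il1r2* did not pass the expression filter among vehicle livers alone, so its entry into the test rested on the APAP livers. *Irak2*, a kinase below the IL-1 receptor, rose by 0.81 (SE 0.26, edgeR's adjusted p = 0.0371). *Il1rap*, the partner chain of *Il1r1*, fell by 0.37 (SE 0.13, edgeR's adjusted p = 0.0478). The third gene that rose was *Il1b*, with 672, 265 and 39 counts in the WT APAP livers and 7 to 67 counts in the 9 other livers.

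Across the 12 livers the levels of several members followed each other, given here as a description of log2 CPM values from livers that share treatment and group. *Socs3* and *Stat3* had a Pearson r of 0.85 (Spearman's rho 0.73) over 12 livers, and 0.79 over the 11 livers without WT vehicle replicate 2. *Osmr* and *Socs3* had an r of 0.89, *Jak1* and *Stat3* 0.83, and *Lifr* and *Socs3* -0.78. The genes most like *Socs3* among all tested were *Zfp36l1* (r = 0.97), *Id3* (0.95), *Gjb2* (0.94), *Litaf* (0.94) and *Efna1* (0.93). Those most like *Stat3* were *Tnip2* (r = 0.97), the fibrinogen genes *Fgb* (0.97) and *Fgg* (0.95), *Nedd4l* (0.95) and *Ptpn1*, a phosphatase gene (0.95). Without WT vehicle replicate 2 these 10 values lay between 0.93 and 0.96.

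**Figure D5:**
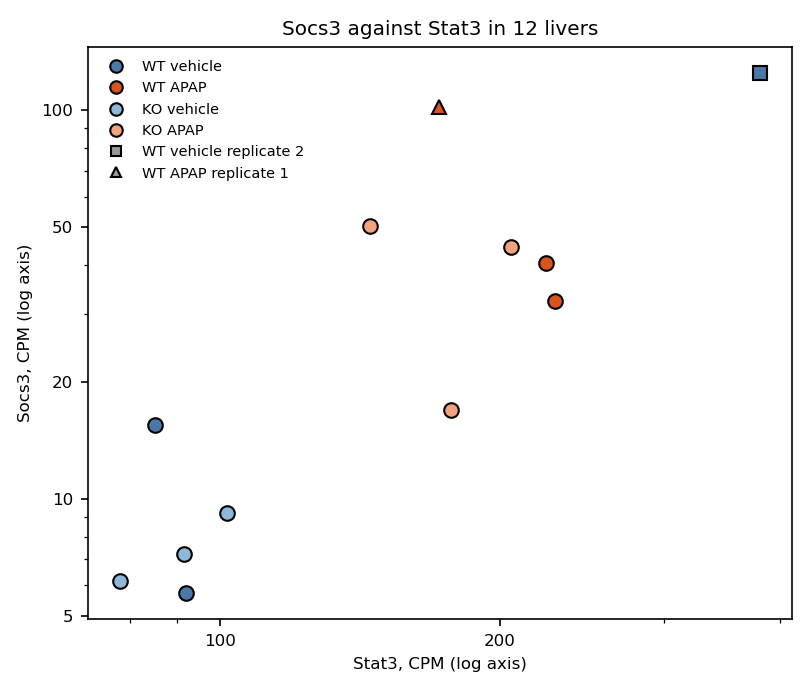
*Socs3* against *Stat3*, both in CPM on log axes, with 1 point for each of the 12 livers coloured by group. The 5 vehicle livers other than WT vehicle replicate 2 lie at the lower left (at most 101.8 CPM of *Stat3* and 15.5 CPM of *Socs3*), the APAP livers above and to the right, and WT vehicle replicate 2 at the upper right.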

How the data were processed

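Total liver RNA was converted to stranded poly-A libraries and sequenced in paired ends on a NovaSeq. The submitters' processing notes name FastQC 0.11.7, Trimmomatic 0.38, HISAT2 2.1.0, Bowtie2 2.3.4.1 and StringTie 2.1.3b, with mm10 and GRCm38. The authors deposited read counts per gene without normalization, and these were tested. The TPM values deposited by the authors, scaled by transcript length, were used for the order of levels, and the FPKM values deposited by the authors were not used.

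Counts of the groups compared were filtered by filterByExpr, scaled by TMM and tested in edgeR 4.0.16 (quasi-likelihood F-test, R 4.3.3), with Benjamini-Hochberg adjustment over all genes and a threshold of 0.05. The fit over all livers had genotype label and treatment as terms. The pipeline was tested on simulated data. Alternatives were a Wald test in DESeq2 1.42.0, that tool's size factors in edgeR, a fit without the filter, limma 3.58.1 on quantile-normalized log2(TPM + 1), the replicate number as a block, 12 samples in one fit, and each liver left out. A fit without WT vehicle replicate 2 and WT APAP replicate 1 was chosen after seeing the data. So was the choice to report fits without WT vehicle replicate 2 throughout. Besides the 10 genes, the 3 genes of each list with the smallest unadjusted p-value over all livers and the 5 genes most correlated with *Socs3* and with *Stat3* are named. The members and lists were chosen with earlier results of these data known. Counts per library range from 49737950 to 69566079.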

Additional observations from a re-analysis of the deposited data

How the results depend on the processing

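Of 1063 fold changes recomputed under the alternatives, 924 kept their direction and side of the threshold, 87 lost a call, 15 gained one and 37 turned direction, none of the last among called fold changes. Of the 10 genes, those called over all livers numbered 5, 2 with limma, 3 with the replicate block and 1 to 6 with 1 liver left out. In mice labelled KO 6 were called, 2 with all 12 livers in one fit, and in WT mice 0, or 0 to 1 with 1 liver left out (*Cebpd* without WT APAP replicate 2). Between labels with vehicle 0 were called, 1 with DESeq2.

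Genes called in WT mice numbered 322, 1413 with DESeq2, 62 with the replicate block, 1523 with all 12 livers in one fit and 41 to 442 with 1 liver left out. In mice labelled KO they numbered 3538, 2249 with all 12 livers in one fit and 1995 to 3368 with 1 left out. Between labels after APAP they numbered 5, 29 with DESeq2, 1 with the block, 0 in one fit and 1 to 7 with 1 left out, and with vehicle 4, 137, 0, 0 and 0 to 16. The interaction called 0 genes, 9 with DESeq2 and 0 to 2 with 1 left out. The replicate numbers did not pair the livers: over 18 pairs of equal number the correlation of deviations ran from -0.26 to 0.11, and 0 livers correlated best with their own number.

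Values that turned direction were not called. With 1 liver left out, the log2 fold change in WT mice ran from -0.538 to 0.0591 for *Il6st*, -0.193 to 1.24 for *Stat3*, -0.419 to 2.46 for *Socs3* and -0.73 to 1.17 for *Il1r1* (0.218 with limma, 0.278 with the block), and in mice labelled KO from -0.182 to 0.195 for *Il6st*. Over all livers, with 1 or both doubted livers out, it ran from -0.236 to 0.0911 for *Il6st*, -0.101 to 0.878 for *Il1r1*, -0.158 to 0.197 for *Il1rn* (-0.0801 with limma), -0.015 to 0.139 for *Il27ra* (-0.00661 with limma) and -0.112 to 0.218 for *Cntfr*. *Socs3* between labels after APAP ran from -0.0323 to 0.956. The interaction ran from -0.866 to 0.524 for *Osmr*, -1.14 to 0.274 for *Stat3*, -2.75 to 0.147 for *Socs3* and -1.29 to 0.612 for *Il1r1*. The cause of these shifts was not tested. Leaving a liver out leaves 2 in its group. At this depth *Il6* had counts in 2 of 12 livers and was not tested.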
